A study of Homo sapiens with 39 samples.

Results

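The guides described here are the 267 single-guide RNAs of a pooled CRISPR knockout library that are named AAVS1, out of 12214 guides in all (2.19% of the library). They were taken by name alone, from every guide whose name is AAVS1 followed by a guide number, and were set against the 83 guides whose name is CTRL followed by digits. Both sets were read in 2 separate screens of A375, an established melanoma cell line with a mutated BRAF, in lines carrying a knockout of either MED12 or MED23, which encode subunits of the Mediator complex that links transcription factors to RNA polymerase. The other guides of this library, called epigenetic in the labels, were 11150 guides against 1115 gene symbols and 714 guides named Zhang, whose design the labels do not describe.

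The MED12 knockout cells were sampled at day 0, and at days 8 and 14 in DMSO, the solvent, or in 2 µM vemurafenib, an inhibitor of mutant BRAF. The MED23 knockout cells were sampled at day 0 and at day 14 in DMSO or in 1 µM vemurafenib. The 8 groups held 3 libraries each, 24 in all (15 with MED12 knockout and 9 with MED23 knockout). The labels name the knockout and the cell line and do not say whether a knockout line was 1 clone, or whether the libraries of a group came from separate infections or cultures. P-values therefore measure the spread between these libraries, which may be technical. Each knockout was used in a screen of its own, so knockout and screen cannot be told apart. Neither screen held cells with intact MED12 and MED23.

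AAVS1 is a site in an intron of PPP1R12C that is used as a safe harbour, a place where DNA can be inserted or cut without disabling a gene that cells need. A guide aimed there makes Cas9 cut both DNA strands, and the cell then has to detect and repair a break, so such guides serve as cutting controls. Guides without a target in the genome carry the vector and Cas9 but make no break. A break can hold up the cell cycle until it is repaired, and the difference between both kinds of control is therefore read as the cost of cutting. The labels do not say whether the CTRL guides have a target. The tables give names and counts without guide sequences, so cutting at AAVS1 was taken from the name.

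Total reads per library ran from 16.4 to 20.8 M with MED12 knockout and from 22.8 to 29.0 M with MED23 knockout. No guide was at 0 in any day-0 library. At day 14 between 45 and 60 guides were at 0 in the MED12 libraries, 35 to 59 in the MED23 DMSO libraries, and 0 to 1 in the MED23 vemurafenib libraries. Single guides took large shares of the last group, where 1 gene-targeting guide, CUL3_10 (named after its value was seen), reached 151768 CPM in library 3. The median AAVS1 guide had between 1250 and 2886 reads over all 24 libraries, and the lowest single AAVS1 count was 7. The libraries of a group nevertheless differed beyond counting error, with a chi-square per degree of freedom over guides of 19.2 to 25.4 between day-0 libraries and up to 1139 between the MED23 vemurafenib libraries. Reads were made by PCR and the labels mention no molecular identifiers, so counts are not independent molecules.

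AAVS1 guides lost ground to CTRL guides in both screens, and the loss was larger with MED23 knockout. The level used for this is the mean log2 CPM (read counts scaled to a common library total) over the 267 AAVS1 guides minus the mean over the 83 CTRL guides of the same library. Because it is taken within a library, it does not depend on how libraries are scaled to each other. No p-value is given for this mean.

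In MED23 knockout cells the 3 day-0 libraries stood at 0.15, 0.11 and 0.099, with AAVS1 slightly above CTRL. After 14 days in DMSO they stood at -0.89, -0.78 and -0.79. The groups did not overlap. The change was -0.94 ± 0.038 (SE, n = 3 libraries each), so an average AAVS1 guide ended 47.8% lower relative to an average CTRL guide.

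In MED12 knockout cells the day-0 libraries stood at -0.35, -0.37 and -0.35, already below CTRL. At day 8 in DMSO they stood at -0.68, -0.56 and -0.56, and at day 14 in DMSO at -0.80, -0.53 and -0.61. Neither later group overlapped day 0. The change was -0.24 ± 0.040 at day 8 (15.4% lower) and -0.29 ± 0.078 at day 14 (18.3% lower), and days 8 and 14 overlapped each other. Library 1 was the lowest at each of these days, and between equally numbered libraries of day 0 and day 14 the change was -0.44, -0.17 and -0.27. With the median over guides in place of the mean, the day-14 change was -0.13 and the day-8 change -0.16. Both were smaller by over 1.5 times, and in each case the mean over libraries stayed below day 0. On medians, however, day-14 library 2 stood closer to CTRL than day 0, at 6.89 log2 CPM for AAVS1 and 7.13 for CTRL guides. Day-0 library 2 was at 6.51 and 6.86, so on medians day 14 overlapped day 0.

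The change to day 14 in DMSO differed between the screens by 0.64 ± 0.087 (MED12 minus MED23). The screens stood apart at day 0 and overlapped at day 14. At day 0 AAVS1 minus CTRL was lower in the MED12 libraries by 0.48 ± 0.017, with mean levels of -0.36 ± 0.011 against 0.12 ± 0.027 (SD, n = 3). At day 14 in DMSO it was -0.65 ± 0.13 against -0.82 ± 0.060 (SD, n = 3), a difference of 0.17 ± 0.085 with overlapping libraries.

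Other guide classes differed at day 0 in the same direction. Guides against 35 ribosomal protein genes (350 guides), whose products cells need to grow, stood at -2.08 relative to CTRL at day 0 with MED12 knockout and at -0.26 with MED23 knockout. All gene-targeting guides differed at day 0 by -0.85 ± 0.0073 and Zhang guides by -0.20 ± 0.012 (MED12 minus MED23). What set the day-0 gap was not tested.

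Zhang guides kept pace with CTRL guides where AAVS1 guides did not. Their mean change relative to CTRL was -0.046 ± 0.031 over 14 days in DMSO with MED23 knockout and -0.015 ± 0.032 with MED12 knockout, and in both cases day-0 and day-14 libraries overlapped. AAVS1 guides lay between these controls and guides against needed genes. Over the same 14 days the ribosomal protein guides changed by -4.53 ± 0.15 with MED23 knockout and by -1.96 ± 0.16 with MED12 knockout. All gene-targeting guides together changed by -1.80 ± 0.050 and -0.79 ± 0.039.

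The loss in MED23 knockout cells was spread over nearly all AAVS1 guides. For each guide the change of its log2 level relative to the CTRL mean was taken between the group means. Of 267 AAVS1 guides 259 (97.0%) lay below the median CTRL guide, with a median change of -0.77, a middle range (quartiles) from -1.15 to -0.49, and extremes of -4.95 and 0.53. CTRL guides themselves ranged from -0.83 to 0.63. Below the lowest CTRL guide lay 117 AAVS1 guides (43.8%), against 6 of 714 Zhang guides (0.84%) and 7748 of 11150 gene-targeting guides (69.5%). That limit rested on a single CTRL guide, and with each DMSO library set against its own lowest CTRL guide the AAVS1 count was 102, 26 and 89 in libraries 1, 2 and 3. On the group means, the AAVS1 guides nearest the limit were at -0.834 inside it and -0.830 outside it. A fall by more than 1 log2 unit was seen for 90 AAVS1 guides and by more than 2 for 16.

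With MED12 knockout the AAVS1 guides overlapped far more with CTRL. Of 267 guides 184 (68.9%) lay below the median CTRL guide at day 14 in DMSO and 217 at day 8. By library the day-14 shares were 67.0%, 46.4% and 64.8%, so in library 2 most AAVS1 guides lay above the median CTRL guide, with a median change of -0.063 there. Over the 3 libraries the median change was -0.20 at day 14, the quartiles were -0.65 and 0.09, and 12 guides lay below the lowest CTRL guide, which itself was at -1.36. The spread over CTRL guides was also wider here (SD 0.40, against 0.23 with MED23 knockout).

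The separation of single libraries was counted next. In MED23 knockout cells 209 of 267 AAVS1 guides (78.3%) had all 3 day-14 DMSO libraries below all 3 day-0 libraries, on the level relative to the CTRL mean. The share over all guides was 78.6%, so the AAVS1 share lay at the background of a library made mostly of gene-targeting guides, while 2 of 83 CTRL guides and 47 of 714 Zhang guides met the same condition. In vemurafenib 183 AAVS1 guides (68.5%) met it, against 71.5% of all guides and 10 CTRL guides. In MED12 knockout cells 56 AAVS1 guides (21.0%) met it at day 8 in DMSO, against 32.0% of all guides and 6 of 83 CTRL guides. At day 14 it was met by 50 (18.7%) in DMSO and 51 (19.1%) in vemurafenib, against 30.9% of all guides in either case and 7 and 5 CTRL guides. AAVS1 shares thus lay above those of CTRL guides and at or below those of all guides in each of these comparisons.

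Tests of single guides depended on what was held constant between libraries, in direction as well as in number. In MED23 knockout cells at day 14 in DMSO against day 0, edgeR's quasi-likelihood test with Benjamini-Hochberg adjustment and TMM scaling (which holds the bulk of all guides constant) called 64 AAVS1 guides at an adjusted p under 0.05, 52 higher and 12 lower, whereas scaling on the CTRL guides gave 0 higher and 146 lower. All guides together were called at 36.2% with TMM (14.4% higher, 21.8% lower) and at 64.8% lower with CTRL scaling. The AAVS1 share of 54.7% lower with CTRL scaling was thus below that of all guides. The scaling moved the median log2 fold change of all guides from 0.08 to -1.10 and that of AAVS1 guides from 0.42 to -0.77, so AAVS1 guides lay above the typical guide under either. With TMM 69 of 83 CTRL guides were called higher and none lower, and with CTRL scaling 1 was called, lower. With CTRL scaling 12 of 714 Zhang guides were called, all lower. Leaving out each of the 6 libraries compared in turn left between 107 and 139 AAVS1 guides called lower with CTRL scaling. The TMM count was 25, 30 and 31 without day-0 library 1, 2 and 3.

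The lowest change of any AAVS1 guide relative to the CTRL mean, -4.95, was that of AAVS1_228, named here after its value was seen, which went from 17.7, 23.5 and 27.2 to 0.394, 0.904 and 8.62 CPM. It was called with CTRL scaling (edgeR adjusted p = 0.0103) and not with TMM (edgeR adjusted p = 0.0755). The AAVS1 guides of the largest falls among those called with TMM were also lower with CTRL scaling. AAVS1_55 had 71.0, 55.4 and 66.9 CPM in the day-0 MED23 libraries and 6.48, 6.02 and 3.35 CPM at day 14 in DMSO. Its fall relative to the CTRL mean was -4.70, and its log2 fold change was -3.47 with TMM (edgeR quasi-likelihood, Benjamini-Hochberg adjusted p = 0.000287) and -4.65 with CTRL scaling (edgeR adjusted p = 1.6e-05). All 3 day-14 libraries lay far below the lowest day-0 library. With MED12 knockout the same guide went from 43.6, 32.7 and 30.0 to 43.4, 10.9 and 1.39 CPM, so its libraries there diverged and 1 of them stayed at its day-0 level.

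AAVS1_106 went from 126, 118 and 139 CPM to 7.05, 20.7 and 9.06 CPM, a change of -4.58 relative to the CTRL mean. AAVS1_63 went from 144, 138 and 143 CPM to 31.9, 13.1 and 13.8 CPM, a change of -4.03. AAVS1_264 went from 74.6, 65.6 and 74.0 CPM to 11.2, 8.77 and 16.3 CPM, a change of -3.64. None of these guides overlapped between day 0 and day 14, and all fell far below the lowest CTRL guide.

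At the other end were guides that stayed near the CTRL mean and were called higher with TMM but not with CTRL scaling. AAVS1_262 had 63.3, 72.9 and 56.9 CPM at day 0 and 169, 104 and 166 CPM at day 14 in DMSO. Its log2 fold change with TMM was 1.32 (edgeR quasi-likelihood, Benjamini-Hochberg adjusted p = 0.0173), yet relative to the CTRL mean it was 0.12. AAVS1_158, AAVS1_169 and AAVS1_233 were likewise called with TMM, at log2 fold changes of 1.31, 1.28 and 1.27, and stood at -0.03, 0.03 and 0.05 relative to the CTRL mean.

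With MED12 knockout few AAVS1 guides passed. At day 8 in DMSO against day 0 edgeR called 0 AAVS1 guides (2 had an unadjusted p under 0.05) and DESeq2 called 0, with 0.0327% of all guides called by edgeR and 0.581% by DESeq2. At day 14 edgeR with TMM called 1, higher, against 2.27% of all guides (1.13% higher), and with CTRL scaling 1, lower, against 3.76% (3.31% lower). Equal library numbers paired the MED12 libraries, and with that number as a block 14 were called with TMM (12 higher, 2 lower, against 12.8% of all guides) and 18 with CTRL scaling (2 higher, 16 lower, against 19.8%). DESeq2 called 10 (9 higher, 1 lower), against 8.88%. All of these AAVS1 shares lay below those of all guides. The single TMM call was lost without any of the 3 day-0 libraries and without day-14 DMSO library 3, leaving 0.

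AAVS1_30, the guide called higher with TMM in both knockouts, had 39.0, 46.4 and 48.9 CPM at day 0 with MED12 knockout and 91.0, 68.5 and 167 CPM at day 14 in DMSO. All 3 later libraries were above day 0, with a log2 fold change of 1.74 (edgeR quasi-likelihood, Benjamini-Hochberg adjusted p = 0.0274). With CTRL scaling it was 1.29 and missed the threshold (edgeR adjusted p = 0.0581). In MED23 knockout cells the same guide went from 59.7, 55.0 and 71.6 to 79.8, 85.8 and 89.2 CPM, which was 0.59 with TMM (edgeR adjusted p = 0.0413) and -0.60 with CTRL scaling (edgeR adjusted p = 0.0242). The direction in MED23 knockout cells thus turned with the scaling.

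AAVS1_218 was the guide called lower with CTRL scaling in both knockouts. It had 53.3, 43.9 and 55.7 CPM at day 0 with MED12 knockout and 15.3, 13.4 and 14.2 CPM at day 14 in DMSO, a log2 fold change of -1.82 (edgeR quasi-likelihood, Benjamini-Hochberg adjusted p = 0.0363). With MED23 knockout it had 65.3, 48.9 and 56.6 CPM and then 40.8, 18.0 and 52.4 CPM, a log2 fold change of -1.70 (edgeR adjusted p = 0.00276). The MED12 groups lay well apart, while the MED23 groups overlapped in CPM, which are not scaled on CTRL guides. CTRL guides took 0.81 to 0.82% of the MED23 reads at day 0 and 1.71 to 1.79% at day 14 in DMSO. An overlap in CPM thus need not hold on the scale of that call. With TMM AAVS1_218 was called in neither knockout, at -1.36 (edgeR adjusted p = 0.118) and -0.48 (edgeR adjusted p = 0.341). With the block added, 12 AAVS1 guides were called lower in both knockouts, among them AAVS1_218 again, AAVS1_33, at -2.05 and -2.72, and AAVS1_53, at -1.61 and -3.11 in MED12 and MED23 knockout cells. The numbers pair the MED12 libraries and do not pair the MED23 DMSO libraries with day 0. Without the block AAVS1_33 and AAVS1_53 were not called in MED12 knockout cells (edgeR adjusted p = 0.107 for each with CTRL scaling).

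The size of a guide's fall was related between the screens in DMSO. Across the 267 AAVS1 guides the change to day 14 in DMSO correlated at Pearson r = 0.39 (Spearman 0.32) between MED12 and MED23 knockout cells, against 0.14 across 83 CTRL guides, 0.039 across 714 Zhang guides and 0.56 across 11150 gene-targeting guides. In vemurafenib at day 14 the correlation was 0.21 across AAVS1 guides (Spearman 0.18) and 0.19 across CTRL guides (Spearman 0.051). The screens share no libraries but share the guides themselves, and guides are not replicates. Of the 12 AAVS1 guides below the lowest CTRL guide at day 14 with MED12 knockout, 9 (75%) were also below it with MED23 knockout. That is 7.69% of the 117 there, and those 117 were 43.8% of all 267 AAVS1 guides. The overlap was not tested. Guides that were neighbours in number were hardly alike, with a correlation of 0.013 with MED12 and 0.026 with MED23 knockout. Over 10 blocks of the numbering the median change ran from -0.55 to -0.016 with MED12 and from -0.96 to -0.64 with MED23 knockout. The difference between blocks was not tested. Guides of low day-0 level in the other screen fell further in both. In MED23 knockout cells, by quartile of the MED12 day-0 level from lowest to highest, the medians were -1.0, -0.80, -0.71 and -0.72. In MED12 knockout cells, by quartile of the MED23 day-0 level, they were -0.28, -0.23, -0.18 and -0.15. At day 0 AAVS1 guides already stood below CTRL with MED12 knockout, so that level is not a plain starting level.

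Between vemurafenib and DMSO the AAVS1 level differed by less than the spread of the libraries with MED12 knockout, and was slightly closer to CTRL in vemurafenib with MED23 knockout. With MED12 knockout AAVS1 minus CTRL was -0.65, -0.58 and -0.54 at day 8 in vemurafenib and -0.76, -0.54 and -0.61 at day 14. The difference from DMSO was 0.0071 ± 0.052 at day 8 and 0.0098 ± 0.10 at day 14 (SE, n = 3 each), with overlapping libraries at both days. With equally numbered libraries paired, the differences were 0.0071 ± 0.016 and 0.0098 ± 0.012. The change from day 0 in vemurafenib was -0.23 ± 0.035 at day 8 and -0.28 ± 0.067 at day 14, and the latter was -0.14 with the median over guides.

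With MED23 knockout the vemurafenib libraries stood at -0.70, -0.62 and -0.70, all above the 3 DMSO libraries. The difference from DMSO was 0.14 ± 0.045, 0.11 to 0.16 with any 1 library left out, and 0.23 as a ratio of summed reads. Without vemurafenib library 3 it was 0.16. The change from day 0 in vemurafenib was -0.80 ± 0.033 (42.4% lower), against the -0.94 in DMSO. Ribosomal protein guides moved the same way and further, by 1.59 ± 0.16 from DMSO to vemurafenib, and all gene-targeting guides by 0.52 ± 0.054. Zhang guides differed by -0.023 ± 0.044. The doses differed between the screens, 2 µM and 1 µM.

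Few AAVS1 guides differed singly between vemurafenib and DMSO. With MED12 knockout edgeR called 0 at day 8 (0 with an unadjusted p under 0.05, DESeq2 0, against 0% of all guides by edgeR and 0.00819% by DESeq2) and 0 at day 14 (19 with an unadjusted p under 0.05, DESeq2 1, against 0.0491% and 1.10% of all guides). With MED23 knockout edgeR called 4 with TMM, 2 higher and 2 lower, against 8.38% of all guides, and 10 with CTRL scaling, 9 higher and 1 lower, against 11.4%. DESeq2 called 28 (11 higher, 17 lower), against 18.3%. These MED23 shares lay below those of all guides. The TMM count was 2 without day-14 DMSO library 3 and 7 and 8 without vemurafenib libraries 2 and 3, and the CTRL-scaled count was 6 and 5 without DMSO libraries 2 and 3.

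AAVS1_106 was one of the guides called higher, at 23.0, 14.5 and 25.6 CPM in vemurafenib against the DMSO values of 7.05, 20.7 and 9.06 CPM. The groups overlapped in CPM, which are not TMM-scaled, and the log2 fold change with TMM was 1.84 (edgeR quasi-likelihood, Benjamini-Hochberg adjusted p = 0.0172). The median AAVS1 guide had 2505 to 2886 reads in DMSO and 1250 to 1585 in vemurafenib. Its TMM-scaled log2 CPM was 6.43 to 6.51 and 6.35 to 6.41, so an overlap in CPM need not hold with TMM. AAVS1_55 had 6.85, 6.32 and 7.73 CPM in vemurafenib, with a log2 fold change of 1.49 (edgeR adjusted p = 0.0378). These comparisons share the DMSO libraries with those in which the same guides fell. AAVS1_181, called lower, had 24.0, 10.5 and 18.5 CPM in vemurafenib against 62.8, 97.3 and 85.9 in DMSO, with a log2 fold change of -1.18 (edgeR adjusted p = 0.0216), and these groups did not overlap.

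Against day 0, vemurafenib at day 14 gave more calls. With MED12 knockout edgeR with TMM called 14 AAVS1 guides (5.24%), all higher, against 6.62% of all guides (3.99% higher), and CTRL scaling gave 9 (2 higher, 7 lower) against 7.36%. With the paired libraries as a block the counts were 41 (33 higher, 8 lower, against 20.7%) and 37 (10 higher, 27 lower, against 27.2%). Without any 1 of the 3 day-0 libraries the TMM count was 0. At day 8 edgeR called 0 (3 with an unadjusted p under 0.05, DESeq2 0) against 0.106% of all guides by edgeR and 0.598% by DESeq2. With MED23 knockout TMM called 47 (36 higher, 11 lower) against 25.3% of all guides, or 29 (21 higher, 8 lower) against 20.3% with the replicate number as a block, and CTRL scaling 134 (5 higher, 129 lower) against 56.4%. Without day-0 libraries 1, 2 and 3 the TMM count was 3, 4 and 4, and the CTRL-scaled count was 96, 94 and 88.

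Some of the rises under vemurafenib rested on 1 library. AAVS1_147 had 82.7, 70.1 and 64.4 CPM at day 0 with MED23 knockout and 57.8, 52.0 and 4133 CPM in vemurafenib. AAVS1_259 had 2550, 17.1 and 51.9 CPM in vemurafenib, and AAVS1_2 had 105, 57.4 and 2098 CPM. Each was called higher, at log2 fold changes of 5.55, 4.96 and 4.43 with TMM (edgeR quasi-likelihood, Benjamini-Hochberg adjusted p = 0.0321, 0.0369 and 0.0282). In each case at least 1 vemurafenib library lay below all day-0 libraries in CPM, which are not TMM-scaled. From day-0 library 1 to vemurafenib library 1 the median AAVS1 guide went from 2123 to 1585 reads, but from 6.09 to 6.37 in TMM-scaled log2 CPM. The order in CPM thus need not hold on the scale of the test.

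A rise in 1 library, here a level at least 5 times that of the next library of the group, was counted in every group. It was seen for 15 of 267 AAVS1 guides (5.62%) in the MED23 vemurafenib libraries and for 1 in the MED23 DMSO libraries. In the MED12 libraries it was seen for 20 (7.49%) at day 14 in vemurafenib, 10 at day 14 in DMSO, 1 at day 8 in vemurafenib and 0 at day 8 in DMSO. No AAVS1 guide met it at day 0 in either screen. CTRL guides met it in 5 of 83 cases (6.02%) in each of the day-14 vemurafenib groups and in 1 case at day 14 in DMSO with MED12 knockout. Over all guides the shares at day 14 were 12.7% in vemurafenib and 7.70% in DMSO with MED12 knockout, and 3.37% in vemurafenib and 2.16% in DMSO with MED23 knockout. At day 8 they were 1.39% in vemurafenib and 1.31% in DMSO. The difference between classes was not tested.

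Some pairs of AAVS1 guides moved closely together. AAVS1_2 and AAVS1_51 had 2098 and 2097 CPM in MED23 vemurafenib library 3, 253 and 252 CPM in DMSO library 3, and 236 and 167 CPM in MED12 DMSO library 2 at day 14. Over 24 libraries the deviations of these guides from their group means correlated at r = 0.99, the highest of 35511 AAVS1 pairs, whose median was 0.022. In all, 10 of 35511 AAVS1 pairs and 1 of 3403 CTRL pairs had an r above 0.95, which is about the same share. After the highest AAVS1 pair came AAVS1_49 with AAVS1_5 (0.98), AAVS1_108 with AAVS1_90 (0.97) and AAVS1_1 with AAVS1_48 (0.97). These pairs were picked after their values were seen. Whether they share sequence was not tested, and guides of such a pair do not count as independent.

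Guides against genes of the response to DNA breaks were read in the same libraries. PPP1R12C, the host gene of the site, was not among the 1115 symbols, and 17 of 30 listed break-response genes were, with 170 guides. In MED23 knockout cells over 14 days in DMSO their guides were called lower in 78 cases and higher in 22 with TMM (median log2 fold change -0.97, against 0.08 over all guides), and lower in 127 and higher in 0 with CTRL scaling (median -2.14, against -1.10). Over all guides 21.8% were called lower and 14.4% higher with TMM and 64.8% lower with CTRL scaling, against 45.9%, 12.9% and 74.7% here. In MED12 knockout cells over the same 14 days the list went less one way. With TMM 19 guides were called higher (11.2%, against 1.13% of all guides) and 7 lower (4.12%, against 2.27% of all guides in either direction). With CTRL scaling 18 were called higher and 18 lower (10.6% each). Over all guides 3.31% were called lower and 3.76% in either direction there. The median log2 fold change was -0.64 with TMM and -1.09 with CTRL scaling, against 0.18 and -0.27 over all guides. The list was chosen with earlier results of these data known. In MED23 knockout cells CHEK1, a checkpoint kinase, was at a median of -3.43 relative to the CTRL mean, with all 10 guides called lower under both scalings.

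The difference between the screens was tested for each guide by an interaction term in a joint model of both knockouts. For the change to day 14 in DMSO, edgeR with TMM called 1 AAVS1 guide and 1 CTRL guide, against 1.33% of all guides, and with CTRL scaling 8 AAVS1 guides, all with the higher change in MED12 knockout cells, against 8.08% of all guides in that direction. AAVS1_106 was the guide called with TMM. It had 85.9, 86.8 and 101 CPM at day 0 with MED12 knockout and 111, 70.7 and 166 CPM at day 14 in DMSO, where it fell in MED23 knockout cells as given above. For vemurafenib against DMSO the same fit called 0 AAVS1 guides (20 with an unadjusted p under 0.05, DESeq2 1) against 0.745% of all guides by edgeR and 2.24% by DESeq2, at doses that differed.

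AAVS1 guides started from unequal levels. AAVS1_217 was the lowest at day 0 in both screens, at 4.21, 3.60 and 4.32 CPM with MED12 and 13.4, 15.7 and 15.1 CPM with MED23 knockout. The highest was AAVS1_45 with MED12 knockout, at 508, 498 and 537 CPM, and AAVS1_121 with MED23 knockout, at 392, 399 and 411 CPM. The SD over AAVS1 guides of log2 CPM was 0.89 to 0.91 at day 0 with MED12 knockout and rose to between 1.59 and 1.62 at day 14 in vemurafenib. With MED23 knockout it was 0.86 to 0.88 at day 0 and 1.20 to 1.28 at day 14 in DMSO.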

How the data were processed

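For each screen the authors deposited a table of unnormalized read counts, with a row per guide and a column per library. Per the submitters' processing notes bcl2fastq, HISAT2 and HTSeq were used, in versions not given in the sources used here. The sequence reference and read filters are likewise not given. The whole-genome table of the series was not used here. Libraries were grouped by title.

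The count tests used edgeR 4.0.16 under R 4.3.3 (all 12214 guides of either table passed filterByExpr at a minimum count of 10 and total of 15, TMM, glmQLFit, glmQLFTest, 2-sided, 1 mean per group, Benjamini-Hochberg over all guides, threshold 0.05). The coefficient of biological variation was 0.59 (MED12) and 0.38 (MED23). Levels are log2 CPM with 0.5 added to each count, CPM of single guides are counts divided by the library total, and the SE of a class difference comes from the 3 libraries of each group. The members and lists were chosen with earlier results of these data known. Guides could be named as the 4 largest rises and 4 largest falls of AAVS1 guides, or 2 and 2 of CTRL guides, among those called in a comparison, as called in the same direction in both knockouts over 14 days in DMSO, or as the lowest or highest at day 0, and guides named otherwise are marked.

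The numbers in the labels pair the MED12 libraries, because deviations from group means correlated at 0.34 to 0.89 in all 30 pairs of equal number and at -0.49 to -0.15 otherwise. They also pair the MED23 day-0 and vemurafenib libraries (0.30 to 0.32, and -0.17 to -0.13 otherwise), but not the MED23 DMSO libraries. The fit was tested on simulated data made from MED23 DMSO at day 14 against day 0, with 12214 guides. Alternatives were other scalings, filters, pseudocounts, reference classes and summaries, DESeq2 1.42.0, the block and leaving out libraries. Scaling on CTRL guides together with the block, or with libraries left out, was added after seeing the data. Some genes of the break-response list are not reported here by name.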

Additional observations from a re-analysis of the deposited data

Results flagged for a closer look

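The change to day 14 in DMSO of 1 AAVS1 guide and 1 CTRL guide differed between the knockouts by the interaction test of edgeR's quasi-likelihood fit with TMM and Benjamini-Hochberg adjustment over all guides. AAVS1_106 differed by 3.96 log2 units (MED12 minus MED23, adjusted p = 0.00897), and by 4.76 with CTRL scaling (edgeR adjusted p = 0.00106). CTRL0007 differed by -2.42 (edgeR adjusted p = 0.0419), and by -1.61 with CTRL scaling, where the call was lost (edgeR adjusted p = 0.0813). It went from 55.8, 46.8 and 50.9 to 27.8, 11.4 and 24.3 CPM with MED12 knockout and from 94.1, 87.8 and 94.3 to 199, 280 and 241 CPM with MED23 knockout. With CTRL scaling no CTRL guide was called (1 had an unadjusted p under 0.05). DESeq2, which was not scaled on CTRL guides, called 2 CTRL guides, both with the lower change in MED12 knockout cells.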

How the results depend on the processing

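AAVS1 minus CTRL kept its sign in 12 of 12 alternatives for each change from day 0 and for MED23 vemurafenib against DMSO, and in 8 and 7 of 12 for the MED12 drug difference at days 8 and 14. With the median over guides it was -0.16 (MED12 DMSO day 8), -0.13 (DMSO day 14), -0.14 (vemurafenib day 14), -0.79 (MED23 DMSO) and -0.64 (MED23 vemurafenib), and the MED12 drug difference at day 8 turned to -0.058. With summed counts it was -0.18 for MED12 vemurafenib at both days, -0.84 for MED23 DMSO, -0.61 for MED23 vemurafenib and 0.23 for the MED23 drug difference. With Zhang guides as reference MED23 vemurafenib was -0.73. Without single libraries the ranges were -0.26 to -0.20 (MED12 DMSO day 8), -0.35 to -0.22 (DMSO day 14), -0.26 to -0.20 and -0.33 to -0.22 (vemurafenib days 8 and 14), -0.032 to 0.039 and -0.065 to 0.073 (drug difference at days 8 and 14), -0.96 to -0.90, -0.82 to -0.78 and 0.11 to 0.16 (MED23 DMSO, vemurafenib, drug difference).

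Counts of AAVS1 guides called against day 0 moved most. They are given for the change of setting alone, without the share over all guides, so they do not compare AAVS1 with other guides. For MED12 DMSO day 14 they were 14 with the replicate block, 18 with the block and CTRL scaling and 10 with DESeq2. For MED12 vemurafenib day 14 they were 9 with CTRL scaling, 7 with AAVS1 scaling and 41 with the block. The block with CTRL scaling gave 37 there (10 higher, 27 lower) and DESeq2 44 (41 higher, 3 lower). For MED23 DMSO they were 146 with CTRL scaling and 147 with CTRL scaling and block, all lower. AAVS1 scaling gave 33 there, and DESeq2 gave 101, mostly the other way (83 higher, 18 lower). For MED23 vemurafenib they were 134 with CTRL scaling (5 higher, 129 lower), 31 with AAVS1 scaling and 29 with the block (21 higher, 8 lower). CTRL scaling and block together gave 129 there, all lower. For the MED23 drug difference they were 10 with CTRL scaling, 7 with AAVS1 scaling, 2 with the block, 7 with CTRL scaling and block and 28 with DESeq2, and for the MED12 drug difference at day 14 DESeq2 gave 1. Between knockouts growth gave 8 with CTRL scaling, 8 with the block added and 5 with DESeq2, and the drug effect 1 with DESeq2. The block changed no other count by over 1.5 times.

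Without single libraries the counts were 0 to 1 (MED12 DMSO day 14), 0 to 21 (MED12 vemurafenib day 14), 25 to 59, 3 to 51 and 2 to 8 (MED23 DMSO, vemurafenib, drug difference), 0 to 0 for the other MED12 comparisons, 1 to 2 (growth) and 0 to 1 (drug effect) between knockouts, and with CTRL scaling 107 to 139, 88 to 137 and 5 to 15 with MED23 knockout. The cause of these moves was not tested, beyond fewer libraries. MED23 numbers pair day 0 with vemurafenib and not the DMSO libraries: as a hint from the data, DMSO libraries 1 and 2 correlated best with day-0 libraries 2 and 1 (0.30 and 0.31), while the other MED23 libraries correlated best with their own number. The MED23 block moved counts from 64 to 60, 47 to 29 and 4 to 2.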
